A study of Mus musculus with 6 samples.

Results

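The Elavl, Nova, Cugbp and Musashi genes encode RNA-binding proteins, most of them best known from neurons. Probes were taken by the gene name printed in the scanner files for 9 names: Elavl1, Elavl2, Elavl3, Elavl4, Nova1, Cugbp1, Cugbp2, Msi1 and Msi2. Of these 9, 8 had a probe of that name, 23 probes in all, among 41174 probes on the array and 26488 genes tested. Cugbp1 and Cugbp2 are now called Celf1 and Celf2, and the current symbols are used below. No probe carries the name Nova1. The group was chosen by the drug ratios of these same arrays, in which Elavl4 ran against other neuronal genes. Its ratios between the drugs are therefore a description and carry no test.

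Elavl proteins (also called Hu proteins) bind AU-rich stretches of messenger RNA, stabilise the bound messages and take part in alternative splicing. Elavl2, Elavl3 and Elavl4 are the neuronal members, and antibodies to them are common stains for nerve cells, while Elavl1 (HuR) is made in nearly every cell. Celf proteins regulate splicing and message decay, Musashi proteins control translation in stem and progenitor cells, and Nova proteins are splicing regulators of neurons.

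Kidney rudiments from CD1 mouse embryos at E13.5 were grown on filters as organ explants and exposed for 6 hours to Scriptaid or Nullscript, each at 2.0 µg/ml. Scriptaid inhibits histone deacetylases, and Nullscript is its inactive structural relative, given to the controls at the same dose. RNA of both treatments was hybridised together to 2-colour Agilent arrays, for 3 biological replicates with 2 arrays each and the dyes exchanged between them, so 6 arrays. The labels' protocol pairs the kidneys between the drugs, and no source used here says how many embryos make up a replicate. Which channel held which drug is not settled. By the dye fields, H1f0 (the H1.0 linker histone, log2 ratio -1.001 ± 0.155 SD, n = 3) and Gsn (gelsolin, -1.04 ± 0.14 SD, n = 3), known to rise with histone deacetylase inhibitors in other cells, had more signal with Nullscript. Array titles begin with the Cy3 drug, and the series text mentions swapped dyes on 2 of 4 arrays rather than on 3 of 6. The Scriptaid channel and the Nullscript channel below are the channels so labelled by the dye fields, and ratios are log2 of Scriptaid channel over Nullscript channel. An exchange of the drug names would turn every sign, and differences between genes would keep their size.

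Between 91.5% and 96.5% of the 43379 non-control spots per array and channel were well above background. All 10 kidney marker genes listed were among the probes well above background in both channels of all 6 arrays, as were 23 of 24 neuron markers, so this does not tell the tissues apart. Of the 23 probes, 22 entered the test, which required detection above background on 3 or more of the 6 arrays with either drug. All 22 were well above background in both channels of all 6 arrays, and none of the 23 was saturated. The remaining probe, for Celf2 (A_52_P478051), was well above background on 1 array for Scriptaid and 2 for Nullscript.

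RefSeq start-site windows (mouse build GRCm38.p6, 250 bases before to 50 after the start) were found for 8 of the 9 genes, 22 windows in all, and Msi1 had no entry. The window of Elavl3 and windows of the farthest upstream and an internal start of Elavl4 are printed 5′ to 3′, because these genes had the lowest and the highest ratio of the group. Capitals mark CAGCTG, an E-box, the kind of site bound by basic helix-loop-helix proteins.
Elavl3, minus strand, chr9:22051974-22052273: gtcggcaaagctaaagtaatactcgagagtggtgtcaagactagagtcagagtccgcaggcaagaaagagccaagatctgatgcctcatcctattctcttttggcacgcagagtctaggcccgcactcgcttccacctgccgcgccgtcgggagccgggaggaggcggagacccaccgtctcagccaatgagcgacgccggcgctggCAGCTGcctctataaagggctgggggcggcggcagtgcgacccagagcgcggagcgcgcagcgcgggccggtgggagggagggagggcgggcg
Elavl4 upstream start, minus strand, chr4:110351862-110352161: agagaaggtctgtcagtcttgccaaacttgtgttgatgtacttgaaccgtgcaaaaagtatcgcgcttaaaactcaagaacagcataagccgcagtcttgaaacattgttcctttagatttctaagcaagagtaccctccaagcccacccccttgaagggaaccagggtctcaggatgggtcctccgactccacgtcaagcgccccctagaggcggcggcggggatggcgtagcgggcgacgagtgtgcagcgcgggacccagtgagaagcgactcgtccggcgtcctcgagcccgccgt
Elavl4 internal start, minus strand, chr4:110287478-110287777: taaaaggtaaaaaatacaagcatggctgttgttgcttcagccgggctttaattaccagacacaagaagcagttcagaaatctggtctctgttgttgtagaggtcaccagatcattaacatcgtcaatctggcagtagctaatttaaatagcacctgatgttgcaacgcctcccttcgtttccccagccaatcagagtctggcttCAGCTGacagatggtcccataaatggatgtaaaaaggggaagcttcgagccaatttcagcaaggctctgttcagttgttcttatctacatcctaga
The Elavl3 window and the printed internal Elavl4 window each hold 1 CAGCTG, and the upstream Elavl4 window holds none. Of the other 2 internal Elavl4 windows, the one overlapping the printed window holds the same CAGCTG, and chr4:110286785-110287084 holds none. CAGCTG, which reads the same on both strands, lies in 7 of the 22 windows (31.8%), from 4 genes, and in 16.3% of all 32851 windows. Several of the 22 windows overlap, so they are not independent. GC content was 65.3% for Elavl3, 57.0% for the upstream and 43.7% for the internal Elavl4 window, against a median of 52.7% over all windows. The ratio of observed to expected CpG was 0.922, 0.944 and 0.350 in that order, with a median of 0.384 over all windows. The GC box GGGCGG, searched on both strands, occurs 2 times in the Elavl3 window and in neither printed Elavl4 window, and 35.7% of all windows hold it. CCAAT, also on both strands, occurs 1 time in the Elavl3 window, 2 times in the internal and 0 times in the upstream Elavl4 window, against 37.4% of all windows with it. TTCAGCACC, 1 arm of the site of the neuronal silencer REST, was in none of the 22 windows on either strand and in 0.371% of all windows. No motif contains another, and a match describes letters only.

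Elavl4 (HuD), a neuronal stabiliser of messages, was brighter in the Scriptaid channel on every array and with both of its probes. For probe A_51_P503722, the ratios were 1.14, 1.36 and 1.31 in replicates 1, 2 and 3 with Scriptaid in Cy3. With Scriptaid in Cy5 they were 1.13, 1.27 and 1.52. The mean was 1.29 ± 0.14 (SD, n = 3), a 2.44-fold difference. The normalised log2 intensity was 11.34 to 11.56 in the Scriptaid channel and 10.04 to 10.23 in the Nullscript channel, so the channels did not overlap. The share of all probes with channels that do not overlap was not counted. Here and for the probes below, a lack of overlap is therefore a description only. Probe A_51_P503729 gave 0.67, 0.74 and 0.88 with Scriptaid in Cy3 and 0.66, 0.67 and 0.64 with Scriptaid in Cy5. Its mean was 0.71 ± 0.05 (SD, n = 3), 1.64-fold, and its levels of 8.358 to 8.722 and 7.617 to 7.999 did not overlap either. These means lie at the 99.4 and 95.9 percentiles of all probe ratios. Replicates 1 and 2 shared a slide. Within that slide the ratios were 1.23 and 0.69, and on the slide of replicate 3 they were 1.42 and 0.76.

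Elavl3 (HuC), a neuronal relative also used as a nerve cell marker, gave different values with its 2 probes. For A_51_P305230 the ratios were -2.38, -2.21 and -2.34 with Scriptaid in Cy3 and -2.43, -2.44 and -2.55 with Scriptaid in Cy5. The mean was -2.39 ± 0.06 (SD, n = 3), 5.25-fold and at the 0.0228 percentile of all probes. Intensities were 7.42 to 8.01 in the Scriptaid channel and 9.75 to 10.44 in the Nullscript channel, without overlap. The sign is opposite to that of Elavl4 on all 6 arrays. The other probe, A_52_P575128, designed on a cDNA clone (AK090281), had ratios of -0.09, -0.38 and -0.16, then 0.02, 0.00 and -0.37. Its mean was -0.16 ± 0.12 (SD, n = 3) and its channels overlapped. The Elavl3 probes thus differed from each other by 2.23, the widest gap between probes of 1 gene in the group. By the mean of both channels, the brighter of them is the one near 0, so a summary by the brightest probe gives Elavl3 a ratio of -0.16. In the Nullscript channel alone the median was higher for A_51_P305230, at 10.13 against 9.745 for A_52_P575128. In the Scriptaid channel these medians were 7.74 and 9.627. Within the first slide the probes gave -2.37 and -0.11, and on the second -2.45 and -0.27.

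**Figure D1:**
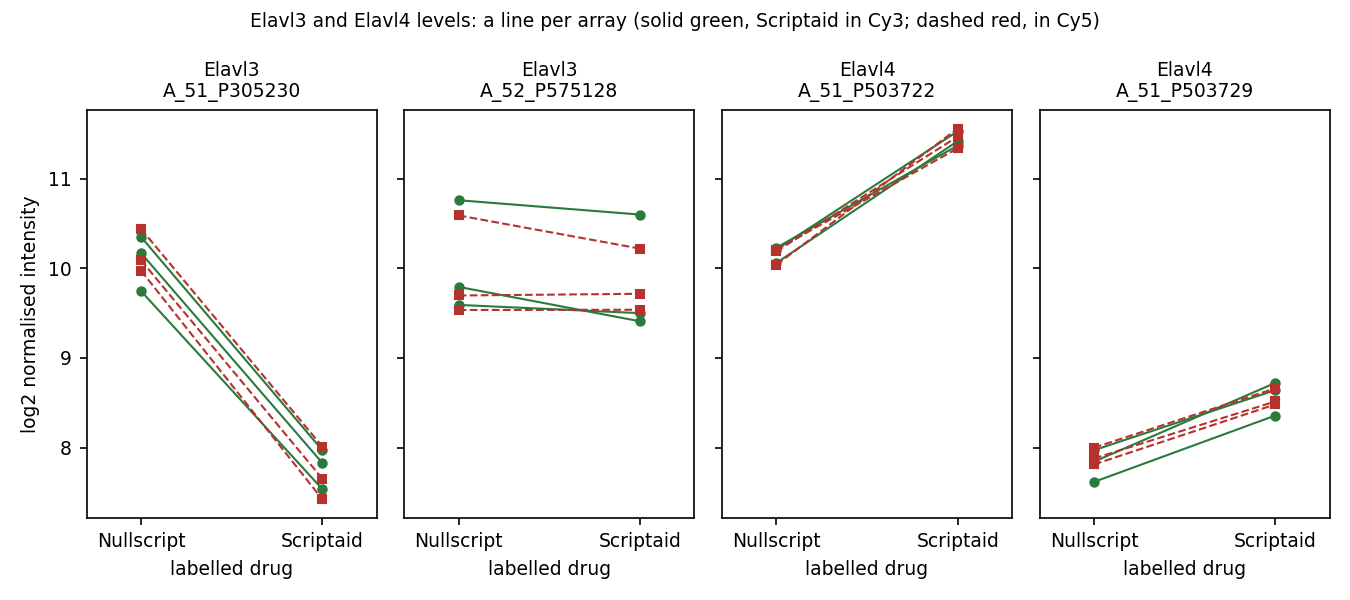
Normalised log2 intensity (vertical axis) of the Nullscript and Scriptaid channels for the 2 Elavl3 and 2 Elavl4 probes, with 1 line per array (solid green, Scriptaid in Cy3; dashed red, Scriptaid in Cy5). All 6 lines fall for A_51_P305230, from 9.75 to 10.44 down to 7.42 to 8.01, all 6 rise for both Elavl4 probes, and the lines of A_52_P575128 change by 0.38 or less.

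Elavl2 (HuB), the third neuronal member, was lower in the Scriptaid channel by a small amount. Probe A_52_P664899 had ratios of -0.26, -0.48 and -0.64 with Scriptaid in Cy3 and 0.08, -0.44 and -0.25 with Scriptaid in Cy5, a mean of -0.33 ± 0.21 (SD, n = 3). Probe A_51_P134835 was below 0 on all 6 arrays, from -0.33 to -0.04, with a mean of -0.16 ± 0.05 (SD, n = 3). The channels overlapped for both probes. The means were -0.27 and -0.14 without replicate 2, the same without replicate 3, and -0.36 and -0.16 with the slide as a block. Both probes were called at a limma adjusted p under 0.05 with all replicates, but neither was called in any of these settings. As the group was chosen from this contrast, these calls describe the values and carry no test.

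Elavl1 (HuR), the family member found in nearly all cells, was higher in the Scriptaid channel with both probes of its RefSeq message. For A_52_P118640 the 6 ratios ran from 0.37 to 0.55, with a mean of 0.45 ± 0.05 (SD, n = 3). For A_51_P301487 they ran from 0.27 to 0.54, with a mean of 0.41 ± 0.07 (SD, n = 3). The channels did not overlap for either of these probes. The third probe, A_52_P429534, rests on a cDNA clone (AK010706) and had a mean of -0.05 ± 0.02 (SD, n = 3), with overlapping channels. Its arrays split by dye, at -0.20, -0.15 and -0.27 with Scriptaid in Cy3 against 0.15, 0.00 and 0.19 with Scriptaid in Cy5.

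The Musashi genes also lay at or above 0. All 5 probes of Msi2, a regulator of translation in progenitor cells, were above 0 on all 6 arrays. Their means were 0.49 ± 0.10, 0.32 ± 0.15, 0.46 ± 0.17, 0.45 ± 0.10 and 0.34 ± 0.15 (SD, n = 3 each), a spread of 0.17 between probes. The channels did not overlap for 3 of them (A_52_P780821, A_51_P221449 and A_52_P628060). Msi1, known for holding back translation of Numb in neural progenitors, was near 0 with A_51_P296866, whose ratios were -0.23, -0.06 and -0.05, then -0.10, 0.12 and 0.01. The mean of that probe was -0.05 ± 0.10 (SD, n = 3). Its dimmer probe on a cDNA clone (AK084019), A_52_P566963, was above 0 on all 6 arrays, from 0.34 to 0.49, with a mean of 0.40 ± 0.05 (SD, n = 3) and overlapping channels.

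The Celf genes lay at or below 0. Celf1, a splicing and decay factor of many tissues, had 1 probe below 0 on every array. This was A_51_P204845 (cDNA clone AK014492), with ratios from -0.67 to -0.39, a mean of -0.47 ± 0.09 (SD, n = 3) and no overlap of the channels. Its other probes gave -0.07 ± 0.13 for A_51_P431558 and -0.07 ± 0.33 for A_52_P551887 (SD, n = 3), the latter with arrays from -0.69 to 0.59. Celf2, which is prominent in brain, heart and muscle, had means of -0.27 ± 0.06, -0.05 ± 0.01 and -0.01 ± 0.06 (SD, n = 3) for the 3 probes that entered the test. The channels overlapped for each of these 3. The array signs of all Celf2 probes were mixed, and the small SDs cover the mean of the 2 dye orientations, not the gap between them.

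**Figure D2:**
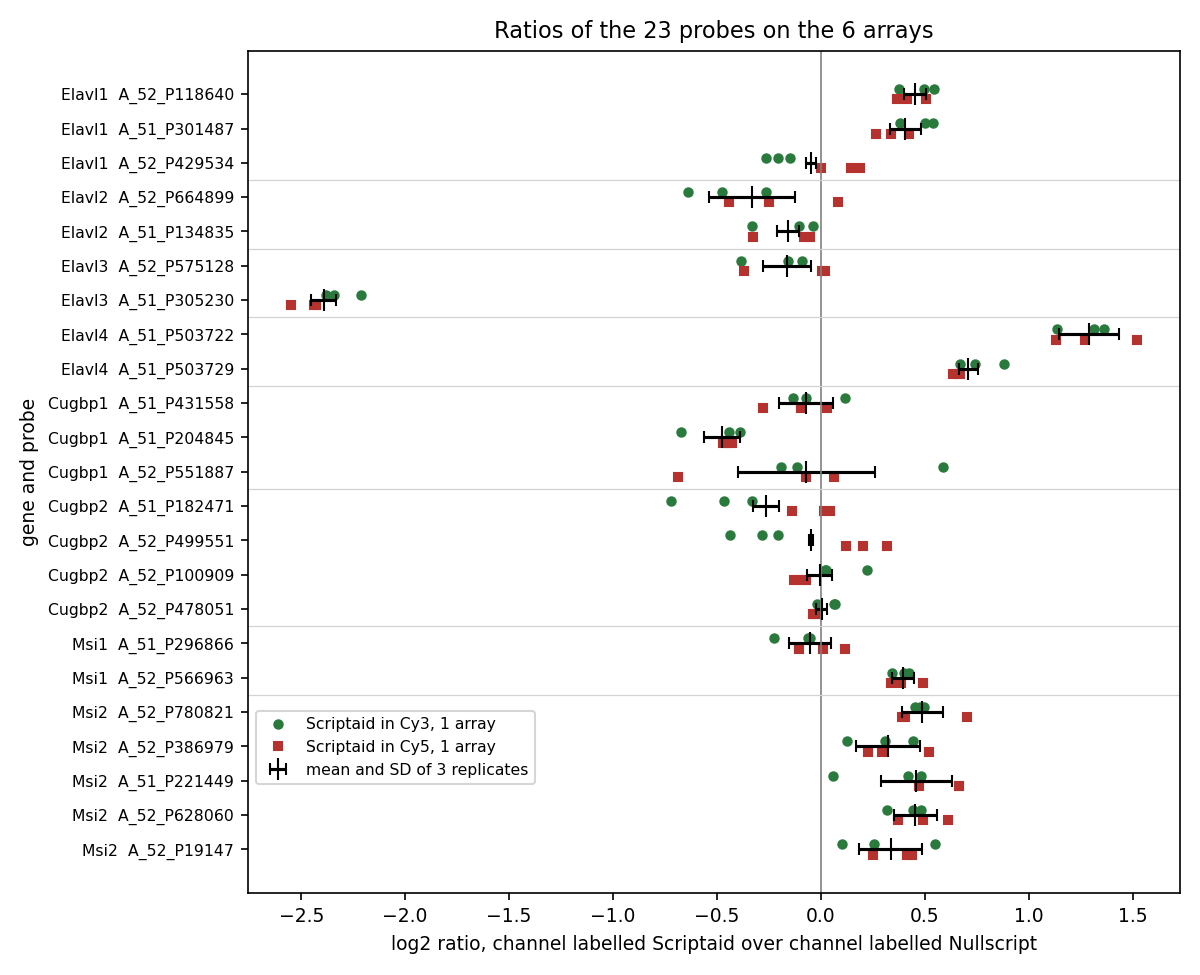
Log2 ratio of the Scriptaid channel over the Nullscript channel (horizontal axis) for the 23 probes, named as in the files; green circles are arrays with Scriptaid in Cy3, red squares arrays with Scriptaid in Cy5, and black bars the mean and SD of 3 replicates. Elavl4 lies farthest to the right at 1.29 and 0.71, the Elavl3 probe A_51_P305230 farthest to the left at -2.39, and all other probe means lie between -0.47 and 0.49.

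Counted over the group, 10 probes were above 0 and 3 below 0 on all 6 arrays. The shares of all probes with the same sign on all 6 arrays were not counted, so nothing is read from this split. The median ratio of the 23 probes was -0.01, against 0.00 over all 39407 probes tested, and the median absolute ratio was 0.33 against 0.11. All 8 genes had more than 1 probe, and 3 of them (Elavl1, Msi1 and Celf2) had probes on both sides of 0. The Elavl1 and Msi1 probes below 0 were at -0.05 and not called, and the Celf2 probe above 0, at 0.004, was not tested. No gene had called probes on both sides. At a limma adjusted p under 0.05, 10 probes of the 22 tested were called higher in the Scriptaid channel and 5 in the Nullscript channel. Over all probes these shares were 23.5% and 21.8%. As the group was chosen from this contrast, nothing is read from its counts. Without replicate 2, without replicate 3 or with the slide as a block, 3 probes rather than 5 were called on the Nullscript side. Without replicate 3 the calls on that side over all probes fell from 8577 to 5331.

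The effect of the dye itself was not used to choose the group and can be tested. With Cy5 against Cy3 fitted on 6 arrays with the replicate as a block, 3 of the 22 probes passed at a limma adjusted p under 0.05, against 3.82% of 39406 probes. These were A_52_P499551 of Celf2 (0.26, limma adjusted p = 0.0139), A_51_P182471 of Celf2 (0.24, limma adjusted p = 0.0473) and A_52_P429534 of Elavl1 (0.16, limma adjusted p = 0.0473). The first and last had means near 0 between the drugs. Without the block, 1 of the 3 passed. The Elavl4 probes had dye effects of 0.02 and -0.05 (limma adjusted p = 0.849 and 0.370) and the Elavl3 probe A_51_P305230 had -0.08 (limma adjusted p = 0.200). Their drug ratios kept their sign in both orientations, at 1.27 and 1.31, 0.76 and 0.66, and -2.31 and -2.47 with Scriptaid in Cy3 and Cy5.

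**Figure D3:**
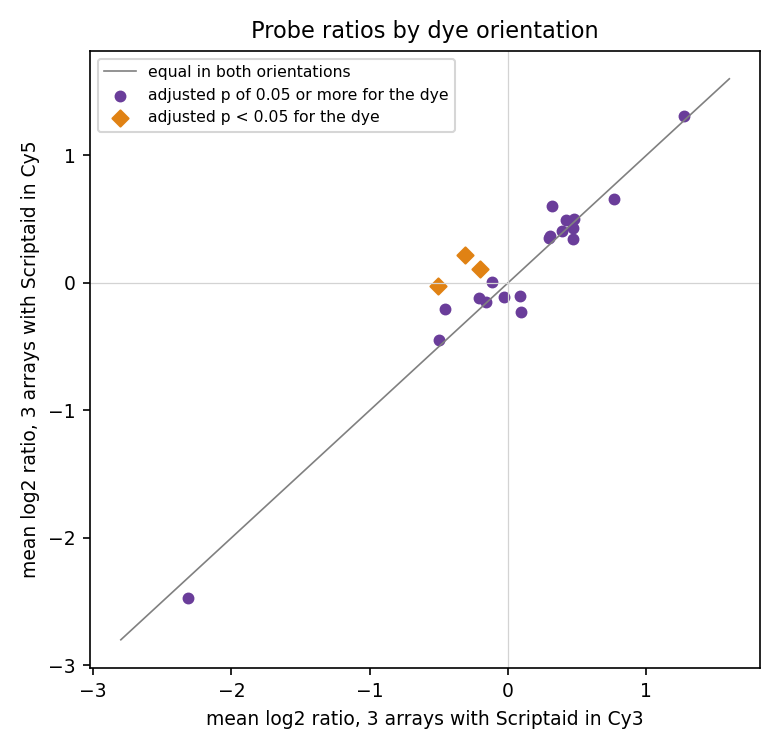
Mean log2 ratio of the 22 tested probes on the 3 arrays with Scriptaid in Cy3 (horizontal axis) and on the 3 with Scriptaid in Cy5 (vertical axis); the grey line marks equal values and orange diamonds the 3 probes that passed the test of the dye. Elavl4 (1.27 and 1.31) and Elavl3 (-2.31 and -2.47) lie near the line, and the diamonds lie above it.

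Other neuron markers were mostly lower in the Scriptaid channel, the side opposite to Elavl4. The group was chosen for this very contrast, so the values of these markers describe it and nothing is read from their counts. Of 24 such genes, each by its brightest probe, 15 were lower, 1 was higher and 8 did not pass at a limma adjusted p under 0.05. Over all genes, 22.5% were called higher in the Scriptaid channel and 23.7% in the Nullscript channel, and the median ratio was -0.26 for the list against -0.01 for all genes. Mapt (the axonal microtubule protein tau) had -1.90 ± 0.25 (SD, n = 3), and its other probes ran from -2.43 to -1.54. Uchl1 (a ubiquitin hydrolase abundant in neurons) had -1.36 ± 0.03 (SD, n = 3), and Nefm (neurofilament) had -1.33 ± 0.18 (SD, n = 3). A second Nefm probe stood at -0.14. The marker on Elavl4's side was Dcx (doublecortin, of young neurons), at 0.68 ± 0.31 (SD, n = 3), with its other probes between 0.00 and 0.26, and it was not called without replicate 3. Dcx was named after its value was seen, as the single exception. In these whole explants, fewer cells of a type and less RNA per cell cannot be told apart.

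The summed normalised intensity of the neuron list was 15.83 to 16.08 (log2) in the Scriptaid channels and 16.41 to 16.68 in the Nullscript channels, with no overlap. The sum is carried by its brightest genes, Syn1 (synapsin, 1 saturated spot) and Uchl1. Without these 2, an alternative added after seeing the data, it was 13.78 to 13.85 against 14.26 to 14.45, and the mean difference was -0.53 both with and without them. Of its 24 genes, 23 were well above background in both channels of all arrays. The part of this shift in the Elavl2, Elavl3 and Elavl4 ratios was not tested. Neural crest and glia markers gave 2 genes higher, 2 lower and 7 not passing of 11, with a median of 0.01. Shares over all genes were 22.5% higher and 23.7% lower. Without any single replicate, 1 rather than 2 was higher, and without replicate 3, 1 rather than 2 was lower. Ngfr (the low-affinity neurotrophin receptor) had -0.65 ± 0.31 (its other probe -0.10), Foxd3 (a neural crest transcription factor) -0.17 ± 0.05 and Fabp7 (a fatty acid binding protein of glia) 0.54 ± 0.17 (SD, n = 3 each). The summed level of that list was 13.89 to 14.05 against 14.07 to 14.24. Kidney markers ran the other way, with 8 of 10 higher in the Scriptaid channel, 0 lower and a median of 0.46. Over all genes, 22.5% were higher and 23.7% lower. The lists were chosen with earlier results of these data known, so nothing is read from their counts. The largest kidney ratios by brightest probe were those of Eya1 (1.64 ± 0.18, its other probe 0.48), Wt1 (0.97 ± 0.07) and Gata3 (0.78 ± 0.10) (SD, n = 3 each). Eya1 and Wt1 are transcriptional regulators of nephron progenitors, and Gata3 is a transcription factor of the ureteric bud. The summed level of the kidney list was 15.69 to 16.01 against 14.98 to 15.24.

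Among related splicing regulators, 18 of 19 listed genes were tested. This list and those of the following paragraphs were chosen with earlier results of these data known, so nothing is read from their counts. Except for Numb, the genes named from them had the largest ratios among the genes called. Their small p-values follow from that choice and are no separate support. Of these, 5 were higher in the Scriptaid channel, 7 lower and 6 not passing, with a median of -0.08. Shares over all genes were 22.5% higher and 23.7% lower. Celf5, a further Celf family member, had -1.17 ± 0.20 (SD, n = 3, limma adjusted p = 0.000405), and its other probe -0.11. Ptbp2, the neuronal form of the polypyrimidine tract binding protein, had 1.06 ± 0.30 (SD, n = 3, limma adjusted p = 0.00163), and its other probes 0.20 to 0.31. Qk (quaking, a splicing regulator best known from glia) had 0.75 ± 0.14 (SD, n = 3, limma adjusted p = 0.000608), with other probes between 0.01 and 0.66. Without replicate 3, or with the slide as a block, 4 rather than 7 of these genes were called lower.

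Among 24 RNA-binding proteins of message stability and translation, 13 were higher, 5 lower and 6 not passing, with a median of 0.21. Of all genes, 22.5% were higher and 23.7% lower. Igf2bp2, which binds and stabilises messages of growing embryonic cells, had 1.42 ± 0.22 (SD, n = 3, limma adjusted p = 0.000298). Stau2, a carrier of messages along dendrites, had 1.01 ± 0.16 (SD, n = 3, limma adjusted p = 0.000360), and Cpeb4, a regulator of poly(A) tail length, had -1.07 ± 0.12 (SD, n = 3, limma adjusted p = 0.000188). The other Stau2 probes lay between 0.55 and 0.87, and the other Cpeb4 probes between -0.38 and -0.05.

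Of 17 messages that Elavl or Musashi proteins are known to bind in other systems, 9 were higher in the Scriptaid channel. A further 4 were lower and 4 did not pass, and the median of the list was 0.34. The shares over all genes were 22.5% higher and 23.7% lower. Ccnd1 (cyclin D1) had 1.90 ± 0.19 (SD, n = 3, limma adjusted p = 0.000148) and Myc, a transcription factor of growing cells, had 1.71 ± 0.28 (SD, n = 3, limma adjusted p = 0.000331), with its other probes from 0.30 to 1.76. Mapt, a message bound by Elavl4 and also a neuron marker above, stood at -1.90. Numb, the message best known as bound by Msi1, had -0.13 ± 0.04 (SD, n = 3, limma adjusted p = 0.0232), named here for that role and not for its size. Its other probes lay between -0.14 and 0.02.

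**Figure D4:**
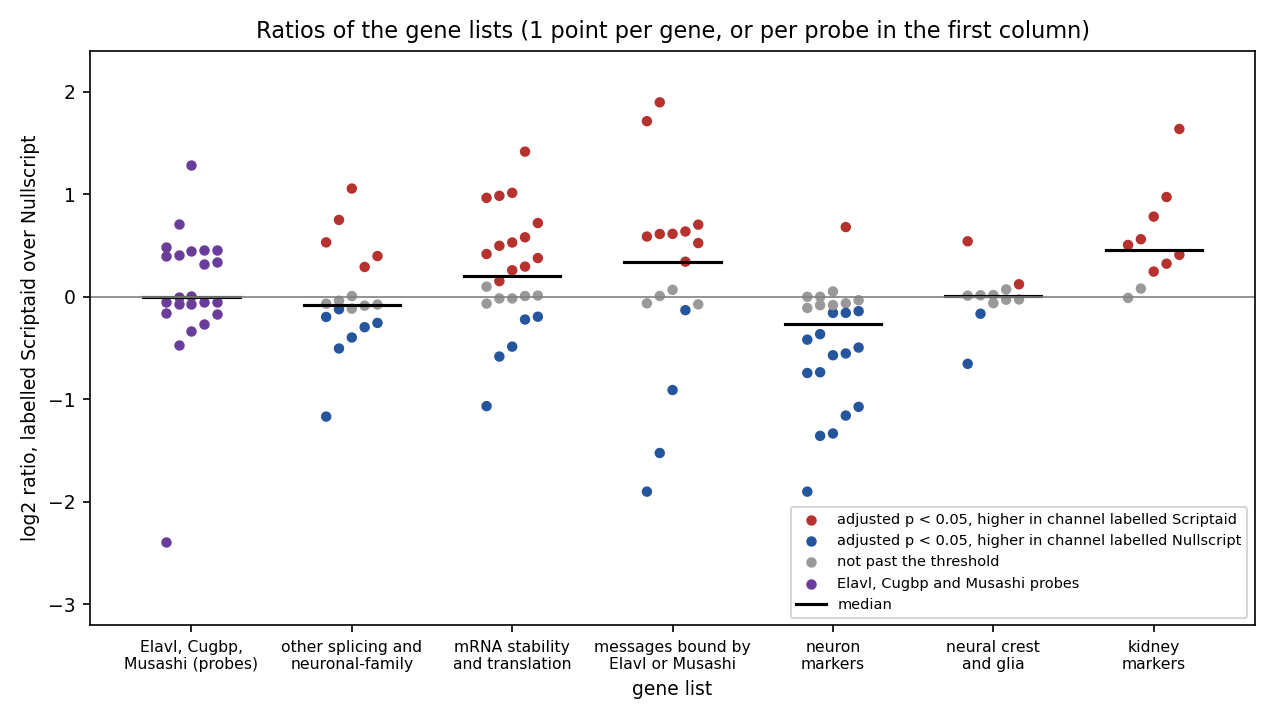
Log2 ratio of the Scriptaid channel over the Nullscript channel (vertical axis), with 1 point per probe for the Elavl, Celf (Cugbp) and Musashi genes in the first column and 1 point per gene in the 6 lists; red and blue mark genes called higher and lower, grey those not called, and bars the median. The neuron markers have their median at -0.26 and the kidney markers at 0.46, while the first column spans -2.39 to 1.29 around a median of -0.01.

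Genes were compared with the Elavl4 probe A_51_P503722 by the root mean square difference of their 6 array ratios. Each gene entered by its brightest probe, with values on all 6 arrays. Genes with only a clone, predicted or accession-like name were left out. The measure favours genes with a mean ratio near that of Elavl4. The 5 closest genes were Fbxo4 (0.126), Dock5 (0.128), Pcnt (0.148), Ednra (0.151) and Zfp827 (0.151). Fbxo4 is an F-box protein, Dock5 an activator of Rac, Pcnt the centrosome protein pericentrin, Ednra an endothelin receptor and Zfp827 a zinc finger protein. Their means were between 1.20 (Pcnt) and 1.36 (Dock5), beside 1.29 for Elavl4. None of the 5 is in the lists above.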

How the data were processed

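The deposited scanner files hold the intensity of each spot and its local background in both dyes, extracted with Agilent Feature Extraction 9.1.3.1 per the file headers. They also hold the log10 ratio of Cy5 over Cy3 that the software made from processed intensities, per the file headers. The authors' deposited value table holds log10 ratios and equals the scanner ratio turned to labelled Scriptaid over labelled Nullscript within 4.82e-06, with column medians between -0.0112 and -0.00298.

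Mean intensities were background-corrected (normexp, offset 50) and loess-normalised within arrays in limma 3.58.1 (R 4.3.3), control spots at weight 0. Outlier spots were left out, spots of a probe averaged and the 2 arrays of a replicate averaged, which cancels an equal dye effect. The 3 replicate means were tested against 0 (lmFit, eBayes, Benjamini-Hochberg), over all probes and over genes by their brightest probe. The dye was tested on 6 arrays with the replicate as a block, since the labels call both arrays of a number the same biological replicate. Deviations of these arrays from their group means correlated at 0.615, 0.131 and 0.0125 for replicates 1, 2 and 3. Between arrays of different replicates the same correlation ran from -0.417 to 0.259. The values thus set only the arrays of replicate 1 apart as a pair. The consensus correlation of the replicate block was 0.119. Levels are loess-normalised with Aquantile between arrays. The fits were tested on simulated data.

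Members, gene lists and motifs were chosen with earlier results of these data known. Named beyond the members are, per list, the 3 genes with the largest absolute ratio among those called with 1 sign in all replicates, and the 5 genes nearest to Elavl4. Outside this rule, Dcx, Numb, Syn1, Stmn2 and Map2 were named after their values were seen, and H1f0 and Gsn for the check of the labels. Probe sequences, and so their place in the transcripts and any match to related genes, were not used here.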

Additional observations from a re-analysis of the deposited data

Results flagged for a closer look

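The difference between the dye orientations (mean ratio with Scriptaid in Cy5 minus that with Scriptaid in Cy3) stood out for 4 probes. It was 0.522 for Celf2 A_52_P499551, with means of -0.31 and 0.21 in Cy3 and Cy5 (limma adjusted p = 0.0139 for the dye). For Celf2 A_51_P182471 it was 0.479, from -0.51 to -0.03 (limma adjusted p = 0.0473). For Elavl1 A_52_P429534 it was 0.317, from -0.21 to 0.11 (limma adjusted p = 0.0473). Celf2 A_52_P100909 had -0.189, with all 3 arrays above 0 in Cy3 (mean 0.09) and all 3 below 0 in Cy5 (mean -0.10), and did not pass the test of the dye (limma adjusted p = 0.161). Groups of 3 arrays are too small to test a single array as an outlier.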

How the results depend on the processing

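The ratio of the Elavl4 probe A_51_P503722 stayed between 1.23 and 1.37 under all 14 alternatives run. That of A_51_P503729 stayed within 1 SD of 0.71 under 10 of 14 and was 0.854 with the Agilent processed ratio and with the authors' value table. It was 0.763 on the arrays with Scriptaid in Cy3 alone and 0.656 on those with Scriptaid in Cy5 alone. The Elavl3 probe A_51_P305230 ranged from -2.81 to -2.31. No called probe of the group changed sign under these alternatives.

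The count of group probes called on the Nullscript side was 5. It was 3 with the slide as a block and 2 on the arrays with Scriptaid in Cy5 alone, and it ranged from 3 to 7 when 1 replicate was left out. Leaving out 1 replicate gave 5331 to 7784 probes and 3999 to 5700 genes called on the Nullscript side. In the test of the dye without the replicate block, 1 group probe passed rather than 3, and 1067 rather than 1507 of all probes. With 6 arrays, a dye term and the replicate block, Elavl4 stood at 1.29 and 0.71 and Elavl3 at -2.39, and 10 and 4 group probes were called on the Scriptaid and Nullscript sides. This pairing moved no other count by over 1.5 times.

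The alternatives were no background correction, the Agilent processed ratio, the value table, median centring, Aquantile, no or a stricter filter, each replicate left out, each dye orientation alone, the replicate block, the slide block and, for the lists, averaging a gene's probes. Aquantile leaves the ratios as they are. Without replicate 3, all of slide 1 is left. The median of all probes lay between -0.0385 and 0.0112. With 3 replicates, small differences have limited precision.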

Other observations

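A single probe named LOC664883 in the files, designed on a predicted transcript whose gene number is that of Nova1 in the RefSeq gene table, lies outside the rule that chose the group. Its ratios were 0.23, 0.01 and 0.32 with Scriptaid in Cy3 and 0.69, 0.32 and 0.40 with Scriptaid in Cy5, with a mean of 0.33 ± 0.15 (SD, n = 3). The intensities of the channels overlapped, at 7.84 to 8.39 for the Scriptaid channel and 7.43 to 8.03 for the Nullscript channel. Nova1 encodes a splicing regulator of neurons. No explanation was tested.

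Among further neuron markers, Stmn2 (stathmin-like protein of growing axons) and Map2 (a dendritic microtubule protein) had -1.16 ± 0.07 and -1.07 ± 0.04 (SD, n = 3 each). A second Stmn2 probe stood at -0.19 and the other Map2 probes between -0.18 and 0.02. Both genes were chosen after their values were seen.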
